A study of Homo sapiens with 6 samples.

Results

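The genes examined here encode mitochondrial ribosomal proteins, the nuclear-encoded proteins of the ribosome that works inside mitochondria. They were the rows of the array carrying exactly 1 platform gene symbol that begins with MRPL or MRPS followed by a number, with an optional letter A, B or C. Where a gene had several rows, the row with the highest mean over the 6 arrays was taken. This gave 74 genes from 81 rows, out of 22465 genes with a row of their own. RefSeq lists 77 protein-coding genes whose symbols fit the pattern. The other 3, MRPL30, MRPS6 and MRPS16, lay on rows that also carry another gene's symbol and were not analysed here.

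All arrays measured total RNA of PC3 cells, which are an established line from a bone metastasis of human prostate cancer. The cells were transiently transfected with the Pre-miR precursor of miR-130a (3 arrays) or with the negative control precursor miR-NC (3 arrays), and the series describes 3 independent experiments. MicroRNAs such as miR-130a bind messenger RNAs through a short seed and lower their level, and the design asks how added miR-130a alters the transcripts of these cells. Every culture is of 1 cell line, no untransfected culture was analysed here, and neither the dose of the precursor nor the time of harvest is given in the labels. Levels are log2 values after RMA, a method that corrects background, equalises the distribution of values between arrays and summarises the probes of a row. Bulk RNA cannot tell fewer cells of a kind from less RNA per cell.

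The mitochondrial ribosome, or mitoribosome, translates the few messenger RNAs encoded by mitochondrial DNA, which specify core subunits of the respiratory chain and of ATP synthase. All of its proteins are made in the cytosol and imported, while its ribosomal RNAs come from mitochondrial DNA. Many mitoribosomal proteins have counterparts in bacterial ribosomes, and others are found only in mitochondria. The names do not always give the subunit: MRPS30 and MRPS18A belong to the large subunit, so that 50 of the 74 proteins were counted here in the large subunit and 24 in the small one.

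Across the series, 950 of 22465 genes passed an adjusted p below 0.05 (limma, Benjamini-Hochberg over all genes), 392 lower and 558 higher with miR-130a. Negative control 3 stood apart: it correlated with the other controls at r = 0.992 and 0.9923 over all rows, below its correlations with the miR-130a arrays (0.9931 to 0.9935). The 5 epithelial markers of the check of cell identity averaged 8.69 to 8.75 on the control arrays and 8.82 to 8.87 on the miR-130a arrays. The leukocyte and fibroblast lists averaged between 4.35 and 4.51 on every array, with PTPRC, DCN and LUM among the dim rows. Their other markers lay above the median row of 4.995: CD3E (5.275), CD14 (5.15), COL1A2 (5.69) and COL1A1 (6.89). COL1A1 lay above the epithelial marker CDH1 (6.49). The endothelial list averaged 5.71 to 5.89. The 3 prostate luminal markers analysed here, KLK3, KLK2 and TMPRSS2, lay at a mean of 5.89, 5.00 and 5.24, at or above the median row of 4.995. KRT18 rose by 0.39 with miR-130a (adjusted p = 0.018), and no other marker passed. The dim row of MIR130A did not pass (adjusted p = 0.265), and whether its probes read the transfected precursor was not tested.

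With miR-130a, transcripts of the mitoribosome stayed close to their control levels. Of the 74 genes, 3 fell (MRPS35, MRPS21 and MRPL24), none rose and 71 did not pass the test (limma, adjusted p below 0.05). The 3 falls are 4.05% of the members, where 1.74% of all genes tested fell, 2.48% rose and 4.23% passed in either direction. Of the 74 members 73 lay above the median row level (4.995); among the 16089 genes above it 2.31% fell and 5.59% passed in either direction. The members' median difference, miR-130a minus control, was -0.014 on the log2 scale, and the median over all 22465 genes was also -0.014. That match depends on which controls are used. Without negative control 3 the median was -0.019 for the members and 0.018 for all genes. In that fit 45 of 74 members (60.8%) and 43.5% of all genes were below 0. Without negative control 1 the order was the other way, with -0.007 for the members and -0.023 for all genes. The quartiles of the members' differences were -0.09 and 0.03, and the extremes were -0.37 and 0.22. At an unadjusted p below 0.05, 9 members differed (12.2%), 8 lower and 1 higher, whereas 16.5% of all genes did, 8.34% lower and 8.16% higher, and 20.2% of the genes above the median row level. The values of the arms did not overlap for 17 members, 13 lower and 4 higher, where 23.6% of all genes showed no overlap, 11.9% lower and 11.7% higher, and 29.1% of the genes above the median row level.

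The measurements were precise enough to bound these changes. The standard error of a member's difference ranged from 0.045 to 0.099 (limma, n = 3 per arm). The 95% interval of the difference, not adjusted for the number of genes, lay within 1.5-fold in either direction for all 74 members. It lay within 1.2-fold, or 0.26 on the log2 scale, for 59 of them. The interval reached farthest down for MRPS35 (to -0.52) and farthest up for MRPS9 (to 0.38).

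**Figure D1:**
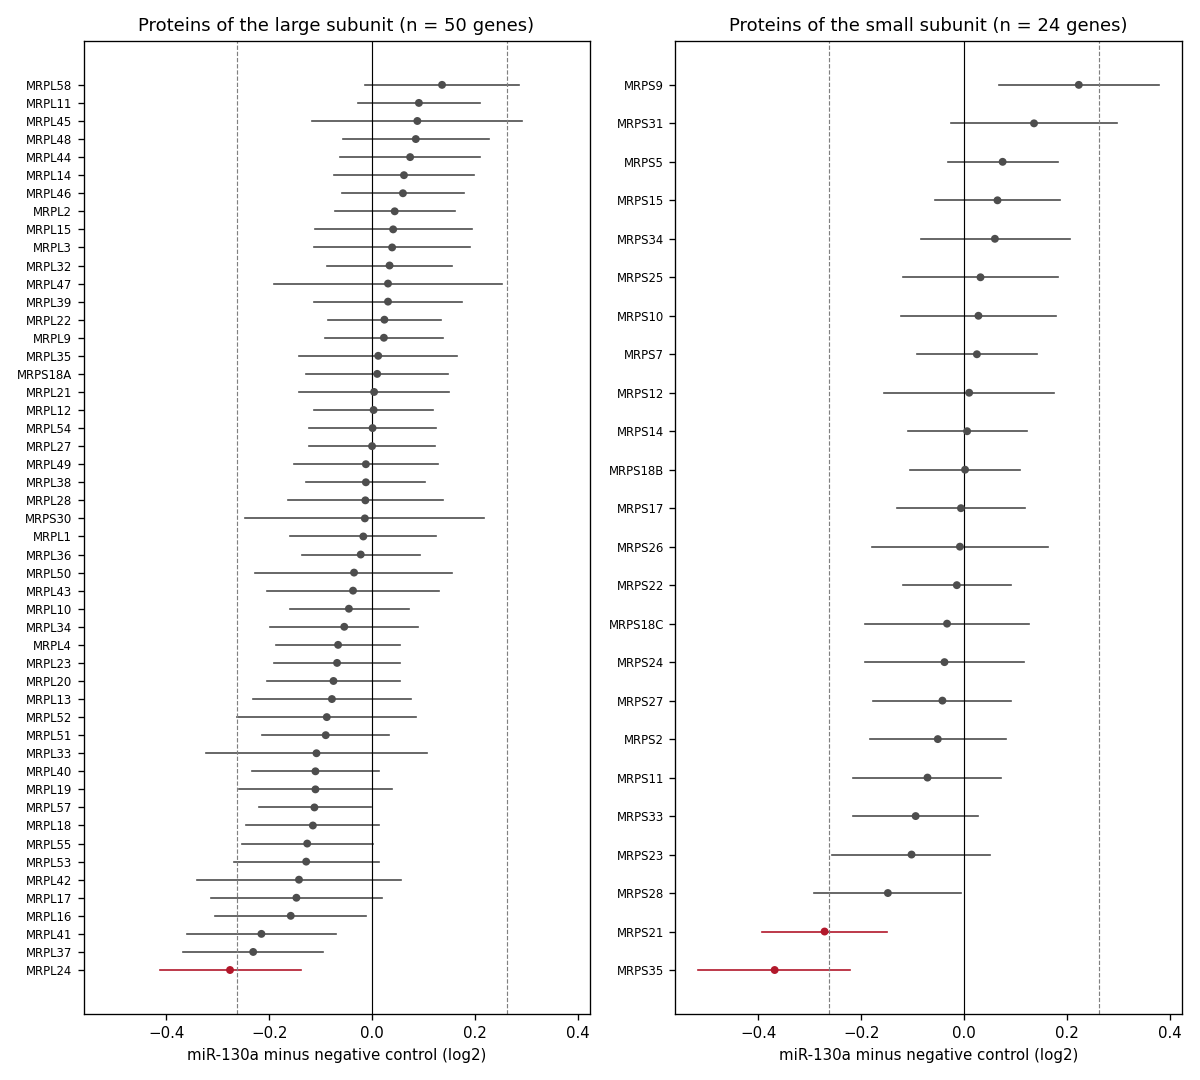
Difference of mean log2 values, miR-130a minus negative control, for the 50 large-subunit genes (left) and the 24 small-subunit genes (right). Points are differences, bars are limma's 95% intervals (n = 3 arrays per arm), dashed lines mark 1.2-fold, and red marks the 3 genes with an adjusted p below 0.05; most intervals include 0.

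MRPS35 had the largest fall among the members. It encodes a mitochondrion-specific protein of the small subunit. In the order of the replicate numbers, its log2 values were 10.03, 10.02 and 9.87 in the controls, against 9.58, 9.67 and 9.56 with miR-130a. All miR-130a values lay below all control values, and negative control 3 was the lowest control. The difference was -0.37 (SE 0.063, adjusted p = 0.0207, limma), which is 1.29-fold lower with a 95% interval from 0.70 to 0.86 of the control level.

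MRPS21 encodes the counterpart of bacterial S21, a protein of the platform of the small subunit. Its values were 9.71, 9.59 and 9.65 in the controls and 9.37, 9.40 and 9.36 with miR-130a. The arms did not overlap, and the miR-130a arrays lay closer together than the controls. The difference of -0.27 (SE 0.052, adjusted p = 0.0324) corresponds to 1.21-fold.

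MRPL24 encodes the counterpart of bacterial L24, which sits at the exit of the tunnel through which the new peptide leaves the large subunit and is known for an early role in bacterial subunit assembly. Variants of the human gene have been linked to inherited respiratory chain deficiency. Its values were 8.15, 8.08 and 8.03 in the controls and 7.78, 7.89 and 7.76 with miR-130a. Again every miR-130a value lay below every control value. The difference of -0.28 (SE 0.059, adjusted p = 0.0446) also corresponds to 1.21-fold.

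These 3 calls lay close to the threshold. None of the 3 passed without miR-130a 1, 2 or 3 or without negative control 1. These fits have fewer arrays, and in them 0.272% to 0.574% of all genes fell, where 1.74% did with all arrays. Why the calls ended was not tested. Without negative control 2, MRPS21 alone passed, and 1.22% of all genes fell. Without negative control 3 all 3 passed and MRPL42 fell too, which makes 4 falls, while 5.14% of all genes fell in that fit. The adjusted p of MRPS35 lay between 0.0615 and 0.12 in the 5 fits that lost it. Centring each array on its median gave an adjusted p of 0.0975 for MRPS35, 0.0939 for MRPS21 and 0.171 for MRPL24. Testing all 67528 rows gave 0.1, 0.158 and 0.186. Against a minimum change of 1.1-fold the adjusted p was 0.16, 0.448 and 0.537. Over all genes the falls were 0.605% with median centring, 0.334% with all rows tested and 0.356% with the 1.1-fold minimum. In the other direction, MRPL37 also passed when dim rows were left out (adjusted p = 0.0426) and with limma's trend and robust options (adjusted p = 0.032). In those fits 3.83% and 2.91% of all genes tested fell.

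**Figure D2:**
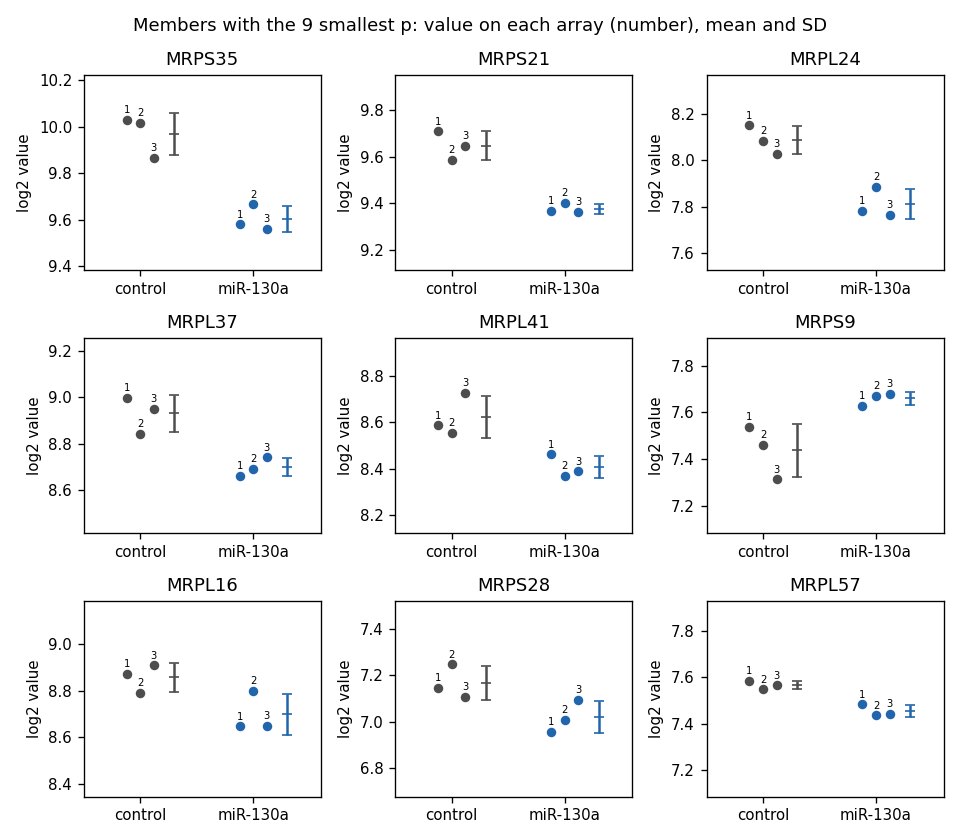
log2 values on each array for the 9 members with the smallest p; numbers are the replicate numbers, and the bar beside each group is the mean with its SD (n = 3). All panels span the same width of log2 values, each around its own centre, and the arms separate in every panel except MRPL16.

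The next members by p did not pass. MRPL37, a mitochondrion-specific large-subunit protein, read 9.0, 8.84 and 8.95 in the controls and 8.66, 8.69 and 8.74 with miR-130a (difference -0.23, SE 0.058, adjusted p = 0.0777). MRPL41, of the same class, read 8.59, 8.55 and 8.73 against 8.46, 8.37 and 8.39 (difference -0.22, SE 0.062, adjusted p = 0.116). MRPS9, the counterpart of bacterial S9 in the head of the small subunit, read 7.54, 7.46 and 7.31 against 7.63, 7.67 and 7.68. It had the largest positive difference (0.22, SE 0.067, adjusted p = 0.13). In all of these genes the arms were separate, and in MRPS9 the control arrays spread more widely than the miR-130a arrays. MRPL16 (-0.16), MRPS28 (-0.15) and MRPL57 (-0.11) completed the 9 members below an unadjusted p of 0.05, at adjusted p of 0.258 to 0.287.

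A further 15 members were taken by smallest p, with adjusted p from 0.306 to 0.616. Their negative differences were those of MRPL55 (-0.13), MRPL53 (-0.13), MRPL18 (-0.12), MRPL40 (-0.11), MRPL17 (-0.15), MRPS33 (-0.09), MRPL19 (-0.11), MRPL51 (-0.09), MRPL42 (-0.14) and MRPS23 (-0.10). Their positive differences were those of MRPL58 (0.14), MRPS31 (0.14), MRPL11 (0.09), MRPS5 (0.08) and MRPL48 (0.09). MRPL58 is a peptidyl-tRNA hydrolase that became a built-in part of the large subunit, and its values, 9.84, 9.65 and 9.81 in the controls and 9.92, 9.93 and 9.85 with miR-130a, did not overlap. MRPL42 did overlap: negative control 3 (8.85) lay within the miR-130a range of 8.84 to 8.97, below the 9.13 and 9.11 of the other controls. Without negative control 3 its difference was -0.23 (adjusted p = 0.0452).

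With all arrays, the medians of both subunits lay close to the -0.014 of all genes. Without negative control 3 they were -0.024 (large) and -0.015 (small), below 0, while that of all genes was 0.018, above 0. Without negative control 1 they were -0.0125 (large) and -0.0026 (small), above the -0.0229 of all genes. Of the 50 large-subunit genes 1 fell (2.00%), with a median difference of -0.016, and of the 24 small-subunit genes 2 fell (8.33%), with a median of -0.007. By origin, the 28 large-subunit genes with bacterial counterparts had a median of -0.015 with 1 fall, and the 22 mitochondrion-specific ones a median of -0.025 with no fall (limma; 3 at an unadjusted p below 0.05). In the small subunit the 14 genes with bacterial counterparts had a median of 0.00 with 1 fall, and the 10 mitochondrion-specific ones a median of -0.011 with 1 fall. MRPS18A (large subunit) and MRPS18B (small subunit) were counted as mitochondrion-specific, although both are paralogs of bacterial S18. Beside these, 392 of 22465 genes fell (1.74%). The counts are too small to order the classes.

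Within the large subunit, the stalk that recruits translation factors is built from MRPL10 and MRPL12, with MRPL11 at its base. None of these 3 passed, with differences of -0.04, 0.00 and 0.09. MRPL12 read 8.53, 8.46 and 8.56 in the controls and 8.51, 8.54 and 8.51 with miR-130a, so the groups overlapped throughout. Of 7 genes at the rim of the peptide exit tunnel, MRPL24 fell and the other 6 (MRPL17, MRPL22, MRPL23, MRPL32, MRPL45 and MRPL47) did not pass. That fall is 14.3% of the 7, where 1.74% of all genes fell. MRPL45, which tethers the mitoribosome to the inner membrane, differed by 0.09 and MRPL47 by 0.03. Of 6 genes of the central protuberance, a protrusion at the top of the large subunit, none passed; their differences ran from -0.12 (MRPL18) to 0.14 (MRPL58), with a median of 0.024.

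Within the small subunit, none of the 5 genes counted in the head passed. MRPS9 (0.22) stood at one end and MRPS24 (-0.04) at the other. Of 3 measured body genes none passed; MRPS12, whose bacterial counterpart helps decode the messenger RNA, differed by 0.01. Of 4 measured platform genes MRPS21 fell (25%), and MRPS11, MRPS15 and MRPS18C did not pass. The 3 paralogs of bacterial S18 differed little: MRPS18A by 0.01 (SE 0.059), MRPS18B by 0.00 (SE 0.046) and MRPS18C by -0.03 (SE 0.069). Their values overlapped between the arms. MRPS18C had a mean of 4.72 and was the only member below the median row of 4.995. It was the dimmest member, but its SE was not the largest, which was 0.099 (MRPS30). Of 12 measured genes known from inherited respiratory chain deficiency, MRPL24 fell (8.33%) and 11 did not pass, with a median of 0.004. MRPS22 differed by -0.01 and MRPL3 by 0.04. The falls by site and by disease are calls already given above, counted again. They are too few to set these groups apart from the 1.74% of all genes that fell.

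Row means depend on the probes and give no order of abundance between genes. The brightest member rows were those of MRPL58 (9.83), MRPS35 (9.79), MRPS34 (9.62) and MRPS10 (9.57), and the dimmest were MRPS18C (4.72), MRPL52 (5.56), MRPL33 (5.58) and MRPL13 (5.98). Apart from MRPS35, none of these 8 passed. MRPS14 had 2 rows, with differences of 0.01 and -0.08. MRPS18B had 7 rows, 6 of them with identical values on every array, and differences of 0.00 on all. RefSeq names pseudogenes for 38 of the 74 members, 9 of them for MRPS21 and 3 for MRPS35. It places 30 members in overlap with another gene, MRPL24 with HDGF among them. Whether probes of these rows read the other copies or genes was not tested.

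Among the controls, arrays differed in the members by more than the median difference between the arms. Relative to the mean of the controls, the median member lay at 0.042 on negative control 1, -0.014 on negative control 2 and -0.017 on negative control 3. With miR-130a it lay at -0.025, -0.012 and -0.023. Negative control 1 was thus the array with the highest median. It was the lowest of the 3 controls for 2 members (2.7%) and the highest for 38 (51.4%), beside 22.2% and 28.9% of all genes. Negative control 2 was the lowest for 36 (48.6%) and the highest for 19 (25.7%), beside 46.2% and 20.1% of all genes. Negative control 3 was the lowest control for 36 members as well and the highest for 17, whereas over all genes it was the lowest for 31.6% and the highest for 51.0%. The controls scattered more than the miR-130a arrays: the SD was larger among controls for 61 of 74 members (82.4%), close to the 80.2% of all genes. The median SD of a member was 0.073 in the controls and 0.034 with miR-130a.

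**Figure D3:**
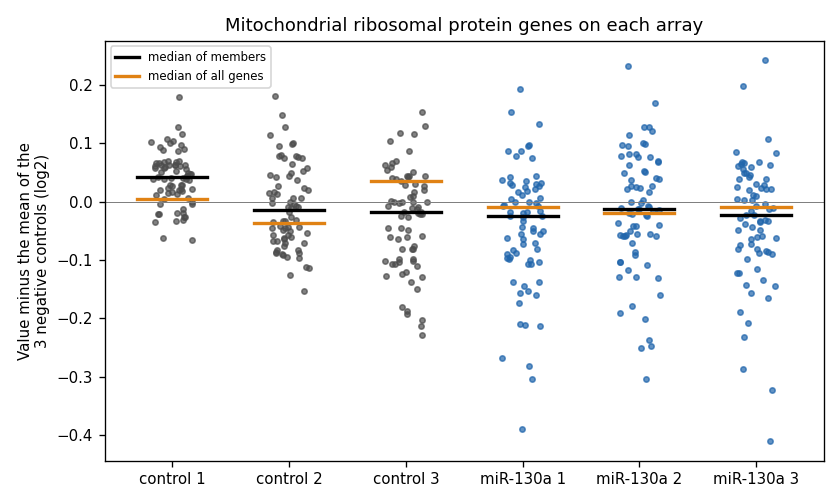
Each point is 1 of the 74 genes on 1 array, as its log2 value minus the mean of the 3 negative controls; black bars are medians of the members and orange bars medians of all 22465 genes. On negative control 3 the median of the members lies below 0 (-0.017) and that of all genes above 0 (0.035).

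Promoter sequence was not used in the selection, and motifs were counted in it as a description, with no test of enrichment. RefSeq's promoter table (GRCh38.p14, 250 bases before to 50 bases after each start) held 66 of the 74 members and 15842 protein-coding genes in all. The motif cores searched, on both strands, were GCGCATGC for NRF1, CCGGAAGT for ETS factors such as GABPA, and AAGATGGCG for YY1. These factors are known regulators of nuclear genes for mitochondrial proteins. The YY1 letters stood in 13 of 66 member promoters (19.7%) and in 2.74% of all promoters. The ETS letters stood in 11 (16.7%) and in 6.19% of all promoters. The NRF1 letters stood in 6 (9.09%) and in 4.26% of all promoters. The NRF1 letters overlap their own reverse complement, GCATGCGC, where both are present, and none of the cores contains another. Any of the 3 stood in 24 member promoters (36.4%) and in 12.2% of all promoters, and 42 member promoters held none.

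None of the motifs was found in the windows of MRPS35, MRPS21 or MRPL24. The 24 members with any of the motifs had a median difference of -0.014, with a range from -0.16 to 0.06, and the 42 without had a median of -0.012, with a range from -0.37 to 0.22. Falls numbered 0 of 24 with a motif (limma) and 3 of 42 without; beside the 1.74% of all genes that fell, these counts are too small to separate the promoters with and without a motif. A match describes letters in a window and does not show a binding site, and a window without one says nothing of the factor. The 120 bases before the start are given 5′ to 3′ on the gene's strand, with motif letters in capitals, for MRPS35 (chr12:27710712-27710831, plus strand) and MRPS21 (chr1:150293741-150293860, plus strand), which fell and hold no motif. Beside them stand MRPL17 (chr11:6683341-6683460, minus strand) with the NRF1 letters, and MRPL20 (chr1:1407294-1407413, minus strand) and MRPS22 (chr3:139343874-139343993, plus strand) with the ETS letters. None of these last 3 passed the test.
MRPS35: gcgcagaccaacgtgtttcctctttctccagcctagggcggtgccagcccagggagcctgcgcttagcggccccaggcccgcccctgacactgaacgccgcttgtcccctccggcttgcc
MRPS21: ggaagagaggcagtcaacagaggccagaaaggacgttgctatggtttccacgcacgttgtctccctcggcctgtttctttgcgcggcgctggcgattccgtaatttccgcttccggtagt
MRPL17: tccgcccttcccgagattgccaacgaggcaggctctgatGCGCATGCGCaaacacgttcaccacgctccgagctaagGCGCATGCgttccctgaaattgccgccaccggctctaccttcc
MRPL20: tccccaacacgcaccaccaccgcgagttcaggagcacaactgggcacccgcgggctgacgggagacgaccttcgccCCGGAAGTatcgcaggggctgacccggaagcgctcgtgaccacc
MRPS22: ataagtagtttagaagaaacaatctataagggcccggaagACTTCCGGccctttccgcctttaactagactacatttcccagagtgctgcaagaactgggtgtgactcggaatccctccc

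Members often lay head to head with a neighbour, meaning that a start site on the opposite strand lay within 1000 bases and pointed away. This held for 17 of 66 members (25.8%) and for 10.3% of all protein-coding genes in the promoter table. MRPL46 and MRPS11 are such neighbours of each other, with differences of 0.06 and -0.07. Of 15 partners measured, 1 fell and none rose (limma), beside 1.74% and 2.48% of all genes. The partner that fell was NCAPD2, a condensin subunit needed in mitosis, next to MRPL51 (difference -0.32, SE 0.062, adjusted p = 0.0332), while MRPL51 itself differed by -0.09 (adjusted p = 0.496). MRPS12 lies next to SARS2, the mitochondrial seryl-tRNA synthetase, which differed by 0.09 (adjusted p = 0.551).

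Other sets of genes for translation and respiration served as a frame. The 55 measured cytosolic ribosomal protein genes had a median difference of -0.056, with 50 below 0 and none past the threshold (limma; 3 at an unadjusted p below 0.05). The 73 nuclear-encoded subunits of the respiratory chain and ATP synthase had a median of -0.092. All but those of succinate dehydrogenase belong to complexes that also hold products of the mitoribosome. Of the 73 subunits, 66 were below 0 and 6 fell (8.22%), where 1.74% of all genes fell. Among the mitoribosomal genes 43 of 74 differences (58.1%) were below 0, and among all genes 56.8%; the members' count was 37 after a second quantile normalization and 34 after median centring. The largest fall among the respiratory subunits was that of SDHA, the flavoprotein of succinate dehydrogenase, with 9.06 ± 0.05 in controls against 8.59 ± 0.04 under miR-130a (log2, SD, 3 arrays each), a difference of -0.47 (adjusted p = 0.00387). Falls among these subunits numbered 14 (19.2%) without negative control 3, where 5.14% of all genes fell. There was 1 fall (1.37%) without negative control 1, where 0.423% of all genes fell. Leaving out any 1 of the miR-130a arrays also gave 1 fall, where 0.272% to 0.574% of all genes fell. With all arrays the falls numbered 2 after median centring (0.605% of all genes) and 1 when all rows were tested (0.334% of all genes). Median centring gave medians of -0.071 for the respiratory subunits, -0.034 for the cytosolic ribosomal proteins and 0.008 for the mitoribosomal genes, where all genes had 0.007. Over the fits without 1 array, the median of the respiratory subunits ran from -0.108 to -0.081 and that of the mitoribosomal genes from -0.031 to -0.007. The difference between the sets was not tested.

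**Figure D4:**
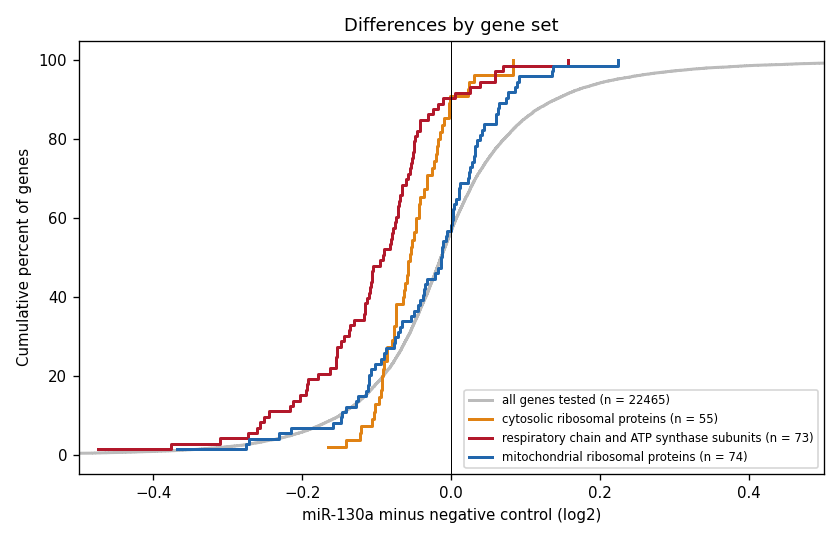
Cumulative percent of genes by their difference, miR-130a minus negative control (log2), for the mitochondrial ribosomal proteins, cytosolic ribosomal proteins, respiratory chain and ATP synthase subunits, and all genes tested; the axis is limited to 0.5 in either direction. The curve of the mitochondrial ribosomal proteins crosses 0 close to that of all genes, with medians of -0.014 for both when all 6 arrays are used.

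Among the remaining genes of mitochondrial translation, a few passed the test in each direction. The 4 measured mitoribosomal proteins with other names, CHCHD1, DAP3, GADD45GIP1 and PTCD3, did not pass, with differences from -0.09 to 0.06. Of 26 measured genes of mitoribosome assembly and ribosomal RNA modification, 1 rose, 1 fell and 24 did not pass, with a median of -0.004. The calls are 7.69% of this list, where 4.23% of all genes and 5.59% of those above the median row level passed. The 2 called genes both act on the small-subunit ribosomal RNA. NSUN4, a cytosine methyltransferase that also joins MTERF4 in large-subunit assembly, rose by 0.28 (SE 0.049, adjusted p = 0.0235). Its values were 6.88, 6.82 and 6.87 in controls against 7.17, 7.11 and 7.12, without overlap. TFB1M, which dimethylates adenines near the end of that RNA, fell by 0.27 (SE 0.051, adjusted p = 0.0301), from 6.66 to 6.39. MTERF4 itself differed by 0.00.

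Of 17 measured translation factors and helpers, SLIRP fell (5.88%, where 1.74% of all genes fell) and 16 did not pass. SLIRP, which with LRPPRC stabilises mitochondrial messenger RNAs, fell by 0.32 (SE 0.057, adjusted p = 0.0252), whereas LRPPRC differed by 0.09 (adjusted p = 0.695). The release factor gene MTRF1L differed by 0.15 (adjusted p = 0.288). Of 12 measured regulators of mitochondrial transcription and biogenesis, 1 rose (8.33%, where 2.48% of all genes rose) and 11 did not pass. MYC, a transcription factor known to drive ribosome production, rose by 0.31 (SE 0.049, adjusted p = 0.0146, limma). The calls in each of these lists are too few to set the list apart from all genes. TFAM, which packages mitochondrial DNA, differed by 0.26 (adjusted p = 0.0775). It passed in 4 of 14 alternatives (adjusted p = 0.0387 to 0.0451): without dim rows, after a second quantile normalization, with trend and robust options, and without negative control 3. Of the factors whose motifs were searched above, YY1 differed by 0.07 and GABPA by 0.00, and NRF1 was not among the 12 measured regulators. GABPB1, of the same list, differed by 0.18 and did not pass (limma, adjusted p = 0.279).

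Leaving out negative control 1, negative control 2 or any miR-130a array ended the calls of NSUN4, TFB1M and SLIRP, at adjusted p from 0.0586 to 0.16. Of all genes, 61 to 273 fell and 176 to 441 rose in those fits, where 392 fell and 558 rose with all arrays. MYC passed without any 1 control and missed without any 1 of the miR-130a arrays (adjusted p = 0.0884 to 0.0971). Median centring ended the calls of SLIRP (adjusted p = 0.119) and TFB1M (adjusted p = 0.123). None of the 4 passed when all rows were tested (adjusted p = 0.0925 to 0.152).

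**Figure D5:**
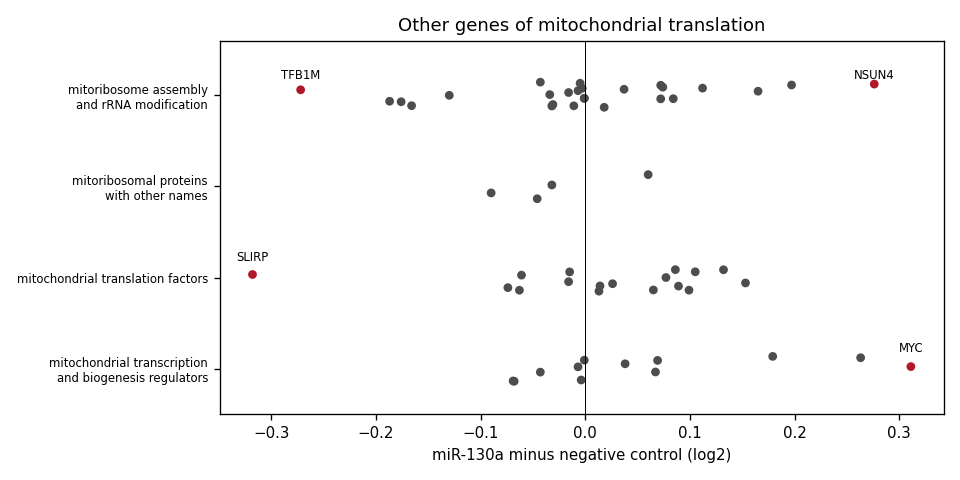
Each point is 1 gene of the 4 lists, by its difference miR-130a minus negative control (log2); red marks adjusted p below 0.05 (limma). NSUN4 and MYC lie to the right of 0 and TFB1M and SLIRP to the left, and the other genes lie between them.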

How the data were processed

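Per the submitters' processing notes, the authors made the deposited table with RMA in Affymetrix Expression Console; versions and genome build are not given in the sources used here. The deposited values were taken as log2 from their range. Of 70753 rows, 67528 held values, and 23781 of these had 1 gene symbol in GEO's platform annotation; 21497 were matched by Entrez identifier to RefSeq (GRCh38.p14) for current names. The row with the highest mean was kept per gene.

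The arms were compared with limma 3.58.1 (R 4.3.3): lmFit and eBayes on 6 arrays, two-sided, Benjamini-Hochberg over 22465 genes, threshold 0.05. The code was tested on simulated data. SE and intervals are limma's moderated ones. Named were the called members filled up to 24 by p, the 4 brightest and 4 dimmest, the S18 paralogs, members with several rows, and per list the called genes and the 2 of smallest p. Other genes, including head-to-head partners, were chosen after their values were seen. Members and lists were chosen with earlier results of these data known. The number of arrays limits the precision. Whether cultures of an arm were otherwise independent rests on the series' description. Alternatives were the replicate number as a block, leaving out rows with a mean below 4.995, quantile normalization applied again, centring on array medians, averaging a gene's rows, testing all rows, eBayes with trend and robust options, a minimum of 1.1-fold, and each array left out.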

Additional observations from a re-analysis of the deposited data

How the results depend on the processing

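The count of members that fell (3) became 1 with the replicate number as a block, 0 with median centring, 0 when all rows were tested and 0 with a minimum of 1.1-fold, and it ran from 0 to 4 with 1 array left out. It was 4 without dim rows and 4 with trend and robust options. The falls over all genes moved too, from 392 to 338 with the block, 136 with median centring, 75 when all rows were tested, 80 with the 1.1-fold minimum, 61 to 1155 with 1 array left out, 616 of 16089 without dim rows and 654 with trend and robust options. No member rose under any of these settings (limma). The median over all members ran from -0.0311 to -0.0067 with 1 array left out, where that of all genes ran from -0.036 to 0.0177. Without negative control 3 the members were at -0.0192 and all genes at 0.0177. Without negative control 1 the members were at -0.0067 and all genes at -0.0229. Scaling moved the members' median with the median of all genes: to -0.0009 (all genes 0.0022) with a second quantile normalization and to 0.0077 (all genes 0.0074) with median centring, where the median of the small-subunit members was 0.0145. The labels do not say whether the replicate numbers pair the arrays. Deviations of same-numbered arrays from their group means correlated at -0.067, 0.058 and 0.089, and not every array correlated best with its own number. With 3 arrays per arm, these correlations cannot decide whether a number marks a shared experiment. Under the block, MRPS35 passed, and MRPS21 (adjusted p = 0.0701), MRPL24 (adjusted p = 0.0679), NSUN4 (adjusted p = 0.0562) and TFB1M (adjusted p = 0.0703) missed the threshold. Over 14 alternatives, MRPS35 and MRPS21 passed in 6 each and MRPL24 in 5. Of 336 comparisons of the 24 members named by p with their main result, 308 kept the side of the threshold, 25 lost the call and 3 gained it. Most of the 24 were not called in the main fit, so most of the 308 are members that stayed uncalled. The direction was the same throughout. It could not change with the block, without dim rows, with averaged rows, with all rows tested, with trend and robust options or with the 1.1-fold minimum, which leave these differences as they are. The other alternatives reuse the same arrays. Detection calls were not used here, so signal over background could be judged only from a row's level, where MRPS18C is the dimmest member.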
